A study of Mus musculus with 28 samples.

Results

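Expression of the PAR bZIP clock output factors Dbp, Tef and Hlf, together with their antagonist Nfil3, was described in ventricular myocardium of male C57BL/6 mice. The 4 genes are 4 of 45513 rows of the deposited table of read counts, taken by gene symbol. They were chosen by results of the same libraries: Dbp, Tef and Hlf were among the genes with the largest differences between colonized and uncolonized mice with kidney disease, and clock genes followed the number of the mouse. Values of both relations are therefore given as descriptions with no test.

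RNA sequencing covered 28 hearts, 1 library per mouse. Chronic kidney disease (CKD) was produced at 6 weeks of age by removal of 5/6 of the kidney mass (5/6 nephrectomy), and control mice had a sham operation. All mice, controls included, ate a diet with added hydroxyproline and calcium, which raises the oxalate load. On day 7 each mouse received by gavage a single dose of live Oxalobacter formigenes (Oxf), an oxalate-degrading gut bacterium, in culture medium, or the medium alone (vehicle). The libraries fell into sham-vehicle (10 mice, numbers 901 to 910), CKD-vehicle (6 mice, 913 to 920), sham-Oxf (5 mice, 921 to 929) and CKD-Oxf (7 mice, 931 to 940). The study planned 10 mice per group, and further mice were not analysed here. The comparisons ask what nephrectomy and the bacterium each do to heart transcripts. The labels give neither the hour at which a heart was taken nor what the order of the numbers stands for, and the numbers run in blocks by group.

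DBP (D-site binding protein), TEF (thyrotroph embryonic factor) and HLF (hepatic leukemia factor) are basic leucine zipper (bZIP) activators with a proline- and acidic-residue-rich (PAR) domain. They bind a promoter element called the D-box. The circadian activators CLOCK and BMAL1 (the product of Arntl) drive Dbp through E-box elements, so that its mRNA cycles strongly over the day in most peripheral tissues, heart included. NFIL3, also called E4BP4, is a bZIP repressor that binds the same D-box and whose gene is itself under the REV-ERB and ROR nuclear receptors through RORE elements. In peripheral tissues the PAR activators and Nfil3 cycle in roughly opposite phases.

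Library depth ran from 19.8 to 65.4 M counts (M, mega), and expression is given as counts per 1 M (CPM) scaled by edgeR's TMM factors. Libraries differed in the share of counts in 2 copies of the 7SL RNA, from 1.83% to 20.98%. Its group mean was highest in CKD-vehicle at 13.6%, followed by sham-vehicle at 9.78%, CKD-Oxf at 8.81% and sham-Oxf at 4.14%. The log2 of that share had a Pearson r over 28 libraries of −0.49 with Dbp, −0.53 with Tef, −0.54 with Hlf and 0.44 with Nfil3, and its part in the results was not tested. With the group means removed these were −0.33, −0.38, −0.36 and 0.24. Taking the 7SL copies out before scaling left the directions of the 4 genes' group differences, and their calls in the 4 tested comparisons, as they were. That step alters the scaling alone and does not test the relation to the 7SL share. The sham-Oxf library of mouse 921 had the lowest depth and 15879 detected genes, whereas the other libraries had 27128 to 33995. The 5 cardiomyocyte markers (Myh6, Tnnt2, Actc1, Tnni3, Ryr2) had a count in each group and summed to group means of 22808 to 31306 CPM, with CKD-vehicle highest. In bulk tissue, fewer cells of a type and less RNA per cell cannot be told apart.

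Each of the 4 genes was detected in every library and passed the filter on low counts. Dbp lies on mouse chromosome 7 from 45705088 to 45710203 on the plus strand (build GRCm38, GENCODE M21 annotation, identifier ENSMUSG00000059824). Tef (ENSMUSG00000022389) lies on chromosome 15 from 81802421 to 81826863 on the plus strand. Hlf (ENSMUSG00000003949) lies on chromosome 11 from 90336536 to 90390895 on the minus strand, and Nfil3 (ENSMUSG00000056749) on chromosome 13 from 52967209 to 52981073 on the minus strand. The exons of Dbp share 539 bases, 18.0% of their length, with Sphk2 on the opposite strand. Whether counting used strand is not given in the sources used here, so reads from that stretch cannot be assigned with certainty. Sphk2 had 29050 counts over all libraries against 72400 for Dbp, and an r of 0.655 with Dbp in log2 CPM. Tef shares 2.45% of its exon bases with the antisense gene Gm17597, which had 86 counts in all libraries together against 139019 for Tef.

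The windows of 250 bases upstream of the RefSeq start sites (GRCm38.p6) were searched on both strands for 4 elements, because the 4 genes vary together: the E-box CACGTG of the clock activators, the D-box TTANGTAA of the PAR factors themselves, the RORE half-site AGGTCA and the cyclic AMP response element TGACGTCA. Of 32851 RefSeq promoter windows of the same length, 6.02% held the E-box, 2.06% the D-box, 14.0% the RORE half-site and 1.55% the cyclic AMP element. Tef has a pair of annotated starts, and both windows held the E-box, 127 and 138 bases before the start. The first lies in an exon of the GENCODE annotation and the second outside exons. The Hlf window held the cyclic AMP element 9 bases before its start, outside exons. The Nfil3 window held the RORE half-site on the opposite strand, within a GENCODE exon. Each follows 5′ to 3′ on the gene's strand with the element in capitals.
Tef first start, chr15:81802534-81802563: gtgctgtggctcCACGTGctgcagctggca
Tef second start, chr15:81811264-81811293: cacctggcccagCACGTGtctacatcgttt
Hlf, chr11:90390918-90390937: ggtgcgggcccTGACGTCAc
Nfil3, chr13:52981040-52981063: ggcgctcggaacTGACCTactaac
The D-box letters were in none of the windows, and the Dbp window held none of the 4 elements. Of the 250 bases of the Dbp window, 159 lie in a GENCODE exon, and sequence outside the windows was not searched. These are matches of letters in short windows and not measurements of binding.

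Dbp was the most variable of the 4 genes, with a 16.2-fold range over the 28 hearts. Per kilobase of exon, its mean of 21.6 ± 12.1 CPM per kb (SD, n = 28) was above Tef at 15.7 ± 7.97, Hlf at 4.43 ± 2.07 and Nfil3 at 2.03 ± 1.12. In sham-vehicle hearts Dbp ran from a lowest value of 24.1 through a median of 48.5 to a highest of 95.1 CPM (mean 52.1 ± 25.3, SD, n = 10). The CKD-vehicle hearts lay lowest, from 8.05 through 20.6 to 44.1 CPM (mean 22.0 ± 14.2, n = 6), and mice 913 and 914 alone were under 10 CPM. The sham-Oxf hearts had 63.1, 96.0, 130, 105 and 106 CPM in mice 921, 923, 925, 927 and 929 (mean 100.1 ± 24.1, n = 5). CKD-Oxf hearts lay from 76.3 through 88.3 to 130 CPM (mean 93.3 ± 18.0, n = 7). The 6 CKD-vehicle values were below all values of both colonized groups, and all other pairs of groups overlapped. CKD-vehicle and CKD-Oxf are the pair whose values chose the genes, so nothing is read from their separation here or for the genes below. The share of all genes with groups separated in this way was not counted.

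Tef, the second PAR activator, had the highest CPM of the 4 genes and a 7.25-fold range. Its sham-vehicle values ran from 61.3 through 87.8 to 178 CPM (mean 102 ± 41.0, n = 10). CKD-vehicle hearts were lower on average, from 35.7 through 50.01 to 97.9 CPM (mean 58.5 ± 25.5, n = 6), with 4 of 6 below the lowest sham-vehicle heart. In sham-Oxf mice 921, 923, 925, 927 and 929 Tef was 85.5, 163, 189, 237 and 259 CPM (mean 187 ± 68.1, n = 5). CKD-Oxf hearts lay from 105 through 172 to 202 CPM (mean 165 ± 34.4, n = 7). Mouse 921 was the one colonized heart within the CKD-vehicle range. The CKD-vehicle and CKD-Oxf hearts, the pair that chose the genes, did not overlap.

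Hlf, the third PAR activator, varied 5.33-fold. Sham-vehicle hearts lay from 14.9 through 23.4 to 43.3 CPM (mean 25.6 ± 9.41, n = 10). CKD-vehicle hearts were packed between 11.7 and 15.0 CPM apart from mouse 919 at 23.0 (mean 14.8 ± 4.21, n = 6). The sham-Oxf values were 23.5, 40.8, 62.3, 50.02 and 49.5 CPM in the same order of mice (mean 45.2 ± 14.4, n = 5). CKD-Oxf hearts lay from 26.4 through 37.4 to 47.9 CPM (mean 36.8 ± 8.20, n = 7). Every CKD-vehicle heart was below every colonized heart, and the lowest colonized heart, mouse 921 at 23.5 CPM, lay just above the highest CKD-vehicle heart at 23.0. The share of all genes separated in this way was not counted, and nothing is read from the separation.

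Nfil3, the repressor, was the least abundant gene, with 51 to 551 counts per library, and its groups stood in the reverse order. Sham-vehicle hearts ran from 2.05 through 3.96 to 5.54 CPM (mean 3.82 ± 1.31, n = 10). CKD-vehicle hearts were highest, from 4.49 through 5.71 to 11.5 CPM (mean 7.04 ± 2.77, n = 6), and mice 913 and 914, the lowest for Dbp, gave 9.45 and 11.5 CPM. The sham-Oxf hearts had 2.42, 1.82, 2.27, 3.35 and 2.78 CPM (mean 2.53 ± 0.574, n = 5). CKD-Oxf hearts lay from 1.91 through 2.62 to 5.77 CPM (mean 3.17 ± 1.43, n = 7). Mouse 935, with the highest Nfil3 of that group, was the one CKD-Oxf heart at or above the lowest CKD-vehicle value, while its Dbp of 92.9 CPM was near the middle of its group.

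**Figure D1:**
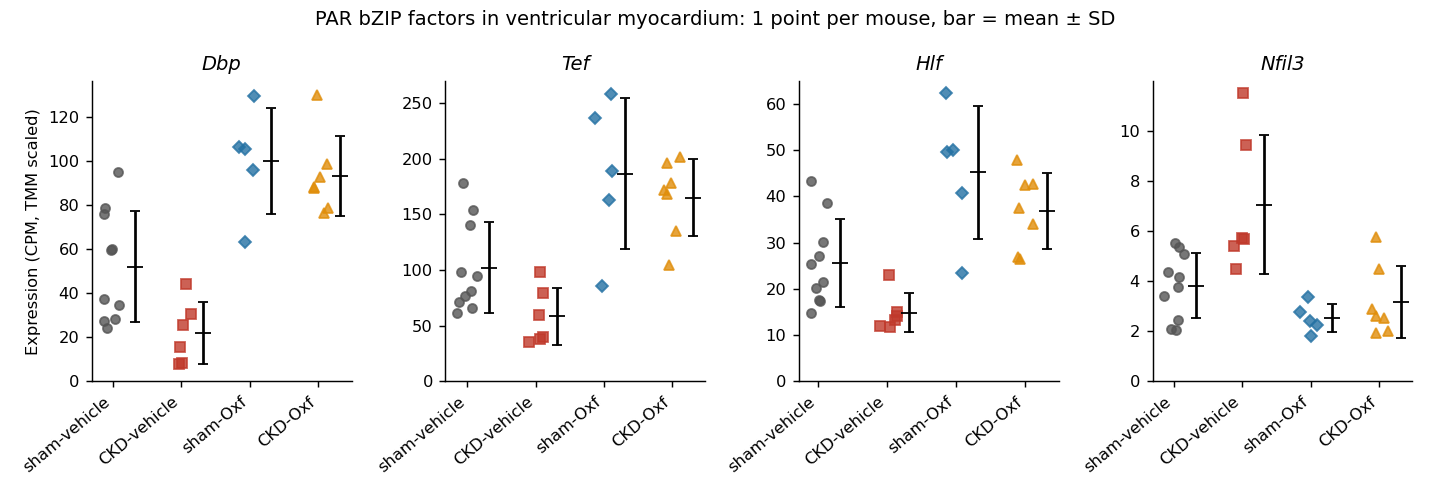
TMM-scaled expression in CPM of Dbp, Tef, Hlf and Nfil3, 1 panel per gene with its own axis from 0; points are mice, bars the group mean and whiskers the SD (n = 10, 6, 5 and 7 mice from left to right). For the 3 activators CKD-vehicle is the lowest group and sham-Oxf has the highest mean, while for Nfil3 CKD-vehicle is the highest.

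The order of the group means was thus sham-Oxf, CKD-Oxf, sham-vehicle and CKD-vehicle for Dbp, Tef and Hlf, and exactly the reverse for Nfil3. Of the variance in log2 CPM over the 28 hearts, 67.9% for Dbp, 61.9% for Tef, 64.4% for Hlf and 50.6% for Nfil3 lay between the 4 groups. A difference between groups among these chose the genes, so high shares follow from the choice and nothing is read from them. The share for all genes was not computed. Between the neighbours sham-Oxf and CKD-Oxf none of the 4 genes was called, although 7 of 7 CKD-Oxf hearts were below the sham-Oxf median for Hlf. Neighbouring sham-vehicle and CKD-Oxf were not compared by a test, and 7 of 7 CKD-Oxf hearts were above the sham-vehicle median for each activator.

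Colonization without kidney disease was examined by sham-Oxf against sham-vehicle, which shares no library with CKD-Oxf against CKD-vehicle. Its sham-vehicle hearts also showed the relation to mouse number that entered the choice of the genes, so it is not independent of that choice. The 3 activators were higher in sham-Oxf hearts by nearly the same amount. The log2 difference was 0.94 ± 0.32 for Dbp (SE; edgeR quasi-likelihood test, Benjamini-Hochberg adjusted p = 0.237 over 24273 genes, n = 10 and 5). It was 0.87 ± 0.26 for Tef (adjusted p = 0.203) and 0.82 ± 0.22 for Hlf (adjusted p = 0.168), while Nfil3 was lower at −0.59 ± 0.29 (adjusted p = 0.395). None of the 4 passed the adjusted threshold of 0.05, beside a background of 0% of all genes called in this comparison. At an unadjusted p under 0.05 all 4 were below it, as were 3054 of all genes tested. DESeq2, which called 169 of all genes, called none of the 4. The test of limma voom with sample weights called 34 of all genes, Hlf among them (adjusted p = 0.0352). Of the 5 sham-Oxf hearts, 4 for Dbp, 3 for Tef and 3 for Hlf exceeded the highest sham-vehicle heart. The median log2 difference over all genes was −0.04.

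Kidney disease without the bacterium gave the opposite signs. In CKD-vehicle against sham-vehicle, whose CKD-vehicle libraries also entered the comparison that chose the genes, the log2 difference was −1.24 ± 0.33 for Dbp (edgeR adjusted p = 0.638, n = 6 and 10). For Tef it was −0.81 ± 0.26 (adjusted p = 0.955), for Hlf −0.79 ± 0.22 (adjusted p = 0.774) and for Nfil3 0.88 ± 0.26 (adjusted p = 0.872). None passed, beside 0.00824% of all genes called, although all 4 had an unadjusted p under 0.05, as had 1083 of all genes. DESeq2, which called 33 of all genes, called none of the 4. The test of limma voom with sample weights called 93 of all genes, among them Dbp, Tef and Hlf (adjusted p = 0.0419, 0.0495 and 0.0459). Both tests of vehicle-treated sham mice use the same 10 libraries. Dbp had at least 395 counts in each library.

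In colonized mice the surgery groups differed less than under vehicle. CKD-Oxf against sham-Oxf gave log2 differences of −0.10 ± 0.35 for Dbp, −0.18 ± 0.29 for Tef, −0.30 ± 0.24 for Hlf and 0.32 ± 0.30 for Nfil3 (edgeR adjusted p = 0.976, 0.941, 0.839 and 0.869). The 95% interval of the Dbp difference ran from −0.80 to 0.59, that of Tef from −0.74 to 0.39, that of Hlf from −0.77 to 0.18 and that of Nfil3 from −0.27 to 0.92. None of the 4 was called by edgeR, DESeq2 or limma voom, or had an unadjusted p under 0.05, beside a background of 0% called and 1997 genes at that unadjusted p. Without sham-Oxf mouse 921, the shallowest library, the differences were −0.23 for Dbp, −0.36 for Tef, −0.46 for Hlf and 0.31 for Nfil3. For Hlf, 7 of 7 CKD-Oxf hearts lay below the sham-Oxf median. A lack of a call does not show that the groups were alike, and a decrease of Dbp by 0.80 lies within the interval.

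CKD-Oxf against CKD-vehicle is the comparison whose values chose the genes, and it is given as a description. Dbp was 4.24-fold higher in CKD-Oxf hearts (log2 difference 2.08 ± 0.36), Tef 2.82-fold (1.498 ± 0.284) and Hlf 2.49-fold (1.31 ± 0.24), while Nfil3 differed by −1.15 ± 0.28. The background was 0.033% of all genes called, 8 genes, of which 3 are Dbp, Tef and Hlf by the way they were chosen. The 8 genes became 927 when CKD-Oxf mouse 934 was left out and 16 without CKD-vehicle mouse 919, and none was called without CKD-vehicle mouse 913 or 914. It was 1 to 5 without any of CKD-vehicle mice 916, 918 and 920 or CKD-Oxf mice 932, 933, 935, 936 and 940, left out in turn. The test of whether the difference between Oxf and vehicle depended on surgery contains that same comparison. It gave 1.14 ± 0.48 for Dbp, 0.63 ± 0.39 for Tef, 0.49 ± 0.33 for Hlf and −0.56 ± 0.40 for Nfil3, each with an edgeR adjusted p of 1.00. A background of 0% of genes was called, 862 genes had an unadjusted p under 0.05, and Dbp was the 1 of 4 among them. DESeq2 and limma voom called none of the 4 for it.

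**Figure D2:**
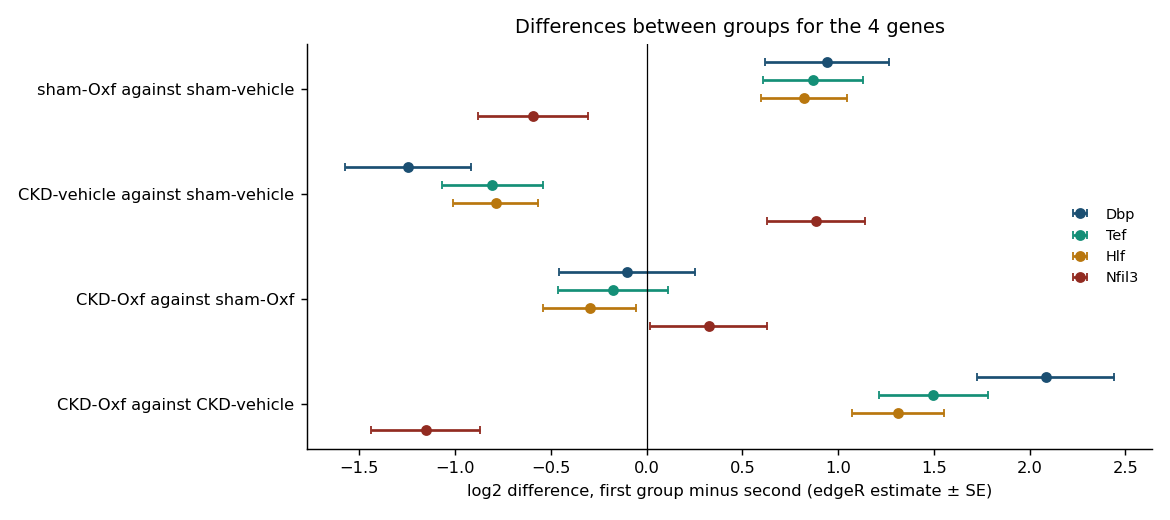
edgeR log2 differences between groups (x axis, first group minus second) for the 4 genes; points are estimates and whiskers 1 SE. Dbp, Tef and Hlf lie together on one side in 3 comparisons with Nfil3 on the other, and all 4 lie nearest 0 for CKD-Oxf against sham-Oxf; the bottom comparison chose the genes.

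Within a group, the genes followed the number of the mouse, a relation that also entered the choice of the genes and is given with no test. Over the 10 sham-vehicle hearts Dbp went from 4.77 log2 CPM in mouse 901 and 4.59 in mouse 902 to 6.57 in mouse 909 and 6.25 in mouse 910. Tef went from 5.94 in mouse 901 to 7.27 in mouse 910, and Hlf from 4.14 to 5.44, while Nfil3 went from 2.35 down to 1.32. Pearson's r with mouse number was 0.940 for Dbp (Spearman's rho 0.939), 0.950 for Tef (0.976), 0.877 for Hlf (0.867) and −0.890 for Nfil3 (−0.867). Without the lowest and highest number, r was 0.964, 0.936, 0.825 and −0.900. In these 10 mice of one surgery and one treatment, Dbp spanned 1.98 log2 units, with an SD of 0.72.

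In the 6 CKD-vehicle hearts Dbp was 3.02, 3.05, 3.95, 4.69, 5.46 and 4.94 log2 CPM in mice 913, 914, 916, 918, 919 and 920. The r with mouse number was 0.956 for Dbp (rho 0.943), 0.908 for Tef (0.886), 0.506 for Hlf (0.543) and −0.823 for Nfil3 (−0.657). Leaving out mice 913 and 914 gave 0.831 for Dbp, 0.891 for Tef, 0.356 for Hlf and −0.06 for Nfil3, so the Nfil3 relation in this group rested on those mice, which were far above the others. Mouse 920 is as far from the median number as 914, and without 913 and 920 the values were 0.992, 0.933, 0.637 and −0.821.

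In the colonized groups, as in CKD-vehicle, the relation to mouse number depended on the gene. The slope of Dbp was smaller than in the uncolonized groups. In sham-Oxf, with 5 mice too few for a correlation, Tef was higher at each of 4 steps, from 6.42 log2 CPM in mouse 921 to 8.01 in mouse 929. Dbp there was lowest in mouse 921 at 5.98 and lay between 6.59 and 7.02 in the rest. In the 7 CKD-Oxf hearts r was 0.055 for Dbp (rho 0.179), 0.463 for Tef (0.429), 0.454 for Hlf (0.429) and −0.507 for Nfil3 (−0.607). Without mice 931 and 940 these were 0.807, 0.379, 0.001 and 0.038. With 1 mouse left out, Dbp ran from −0.299 without mouse 936 to 0.863 without mouse 940, and Tef from 0.093 without mouse 931 to 0.703 without mouse 940. Nfil3 ran from −0.836 without mouse 935 to −0.256 without mouse 940, and Hlf from 0.244 without mouse 931 to 0.628 without mouse 935. The values in CKD-Oxf thus depended on which mouse was left out. Whether the relation differed between groups was not tested. Per 10 mouse numbers the slope of Dbp, in log2 units, was 3.46 in CKD-vehicle and 2.24 in sham-vehicle, against 0.82 in the sham-Oxf group and 0.05 in the CKD-Oxf group. In the same order of groups the slopes of Tef were 1.97, 1.70, 1.87 and 0.52. Those of Hlf were 0.65, 1.47, 1.22 and 0.51, and those of Nfil3 −1.54, −1.58, 0.63 and −0.98.

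**Figure D3:**
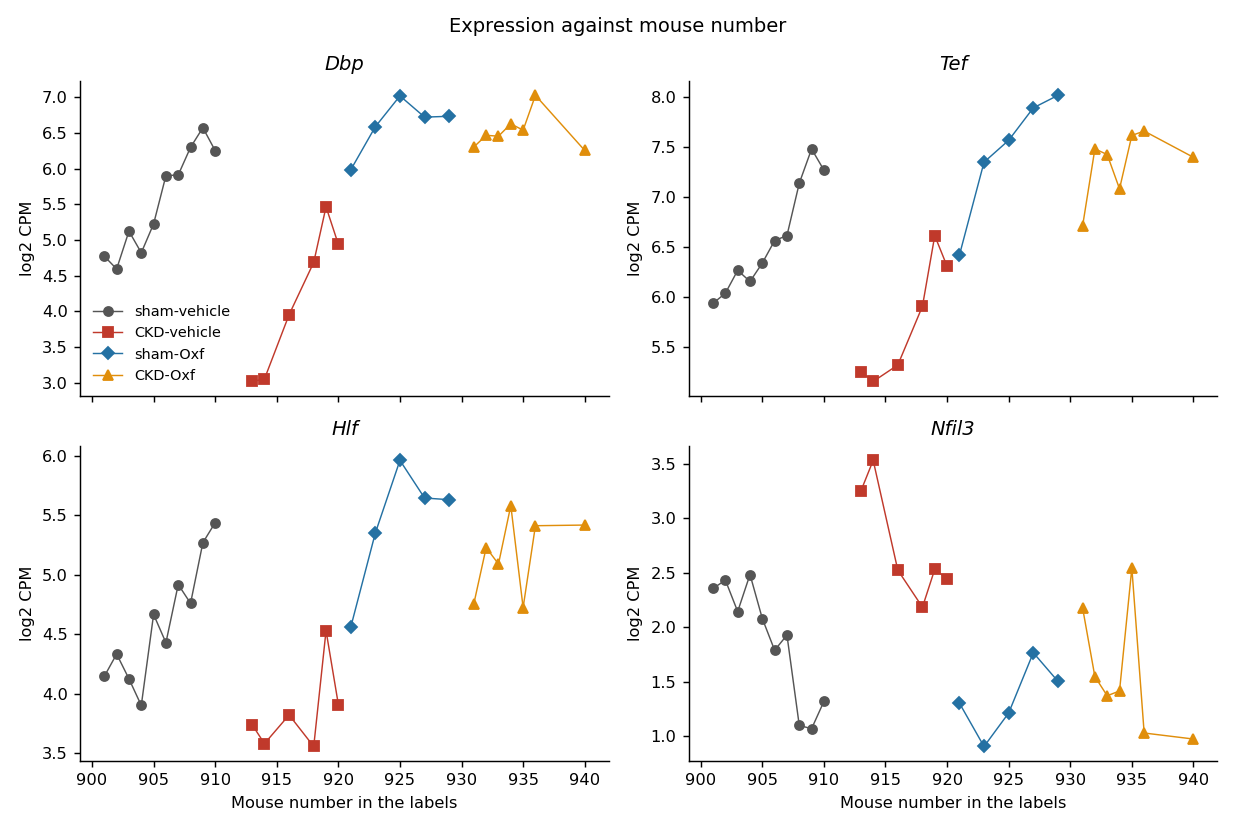
log2 CPM of each gene (y axis, prior count 2) against the mouse number in the labels (x axis), 1 point per mouse, with lines joining mice of a group. In sham-vehicle the 3 activators climb and Nfil3 descends with mouse number (r of 0.940, 0.950, 0.877 and −0.890). CKD-vehicle Dbp goes from 3.02 to 5.46 by mouse 919 and is 4.94 in mouse 920. CKD-Oxf Dbp spans less, from 6.30 in mouse 931 to 7.03 in mouse 936, and is 6.25 in mouse 940.

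A single slope common to the 4 groups, fitted in edgeR with the number centred within each group, was 1.77 ± 0.31 log2 units per 10 numbers for Dbp, 1.53 ± 0.20 for Tef, 1.05 ± 0.22 for Hlf and −1.03 ± 0.31 for Nfil3 (SE). In that fit 0.0371% of all genes were called for the slope, 9 genes, of which Dbp and Tef are 2, a count that follows from the way the genes were chosen and from which nothing is read. Adding a number centred within groups leaves group differences nearly as they are by construction, while it lowers the residual spread by the relation that entered the choice of the genes. In sham-Oxf against sham-vehicle Dbp gave 1.08 (edgeR adjusted p = 0.0770), Tef 0.87 (0.0394), Hlf 0.85 (0.0627) and Nfil3 −0.48 (0.442), so that Tef alone of the 4 passed. Of all genes, 7 were called there in this fit. In CKD-vehicle against sham-vehicle Dbp gave −1.30 (adjusted p = 0.0270), Tef −0.81 (0.0676), Hlf −0.74 (0.302) and Nfil3 0.89 (0.479), so that Dbp alone of the 4 passed. Of all genes, 4 were called there. Because the added number entered the choice of the genes, nothing is read from either pass. The number varies between the groups without overlap, and differences between groups and between blocks of numbers cannot be told apart.

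The genes varied together over the hearts as a whole. They were chosen by a shared group difference and relation to mouse number, which favours such r, so nothing is read from its size. Over 28 hearts, r of log2 CPM was 0.947 between Dbp and Tef, 0.889 between Dbp and Hlf, and 0.905 between Tef and Hlf. Nfil3 was opposed to each, with r of −0.849 to Dbp, −0.776 to Tef and −0.798 to Hlf. With the group means removed the values were 0.862, 0.691, 0.750, −0.688, −0.540 and −0.572, in the same order of pairs. Hearts of a group share surgery, gavage and number block, so these points are not 28 independent measurements. Within the 10 sham-vehicle hearts r was 0.957 between Dbp and Tef and −0.956 between Dbp and Nfil3, whereas within the 7 CKD-Oxf hearts these were 0.482 and −0.260. Also weak were Dbp with Hlf (0.360) and Tef with Hlf (0.185) in CKD-Oxf, and Hlf with Nfil3 (−0.277) in CKD-vehicle. Hlf and Nfil3 were most opposed in CKD-Oxf, at −0.870, and mice 931 and 935 had the highest Nfil3 and the lowest Hlf of that group.

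**Figure D4:**
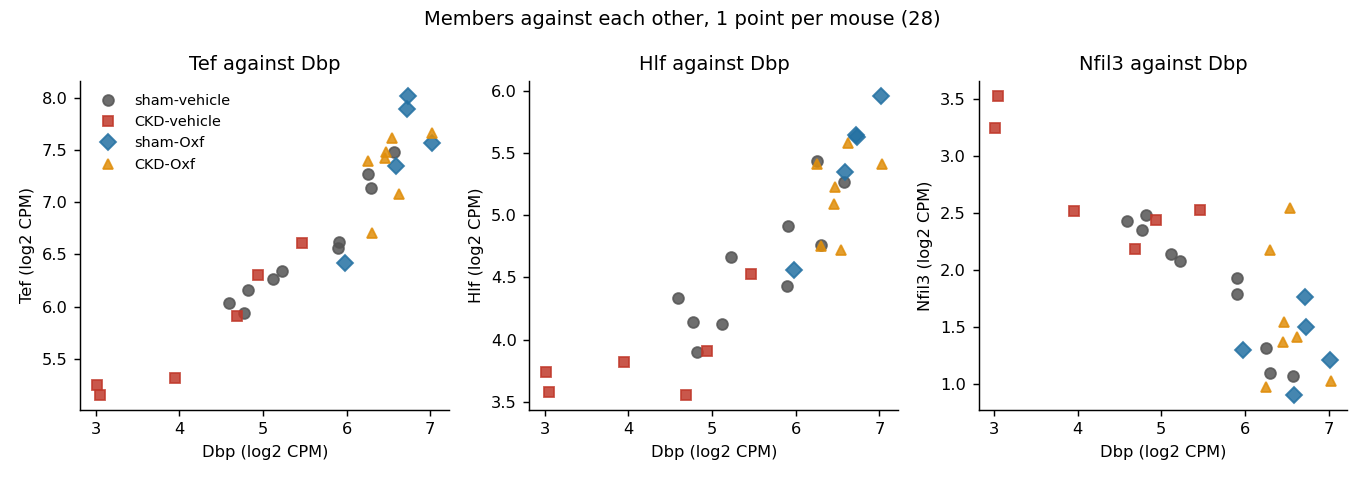
log2 CPM of Tef, Hlf and Nfil3 (y axes) against log2 CPM of Dbp (x axes), 1 point per mouse, marked by group. Tef and Hlf climb with Dbp over the 28 hearts (r of 0.947 and 0.889) and Nfil3 descends (−0.849), with CKD-vehicle mice 913 and 914 at the low-Dbp end and the colonized hearts at the high-Dbp end.

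The ratio of Dbp to Nfil3 counts sets an activator beside its repressor within a library, where scaling cancels, and it is not corrected for gene length. It ran from 4.51 to 46.4 in sham-vehicle and from 26.1 to 57.1 in sham-Oxf. CKD-Oxf hearts ran from 16.1 to 65.4. In CKD-vehicle it ran from 0.717 to 7.69, and mice 913 and 914, at 0.852 and 0.717, were the hearts with more Nfil3 than Dbp counts. Its mean log2 was lowest in CKD-vehicle, 1.45 ± 1.49, then 3.697 ± 1.254 in sham-vehicle, 4.97 ± 0.70 in CKD-Oxf and 5.30 ± 0.48 in sham-Oxf (SD). The spread within each uncolonized group exceeded that within each colonized group, a difference that was not tested.

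The genes most like each member were found by r of log2 CPM over the 28 hearts among 13902 genes. For Dbp they were Per3 (0.933), Mthfd1l (0.925), Bhlhe41 (0.897), Ciart (0.893) and Per2 (0.875). Per2 and Per3 are period genes, and Bhlhe41 (DEC2) and Ciart are repressors of the clock activators. Most opposite to Dbp were the magnesium transporter gene Slc41a3 (−0.902), the clock activator genes Clock (−0.884) and Arntl (−0.845), Leo1 (−0.823) and Slc35f6 (−0.800). Tef was most like Ciart (0.971), Mthfd1l (0.971), Per3 (0.970), Per2 (0.942) and Ankrd12 (0.939). Hlf was most like Mthfd1l (0.929), Bhlhe41 (0.886), Ciart (0.867), Acap2 (0.864) and Per3 (0.861). For Nfil3 the closest were Slc41a3 (0.827), Clock (0.795), Adprhl1 (0.760), Slc35f6 (0.753) and Arntl (0.751), of which Slc41a3, Clock, Slc35f6 and Arntl are also among the most opposite to Dbp.

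Of 11 genes of the clock loop that drives the members (activators Arntl, Clock and Npas2, and repressors of the Per, Cry, Ciart and Bhlhe40/41 type), edgeR called none in the 4 tested comparisons (the bacterium in sham mice, CKD under vehicle, CKD in colonized mice, and the interaction). At an unadjusted p under 0.05 there were 8, 9, 2 and 0 of the 11. In the first of these comparisons DESeq2 called 3 of 11 (Arntl, Clock and Bhlhe41) and limma voom 2 (Cry2 and Bhlhe41), and in the second limma voom called 1 (Bhlhe40) and DESeq2 none. Those names were taken after the values were seen. In the third and the interaction neither called any. Arntl had the largest difference between sham-Oxf and sham-vehicle, −2.36 ± 0.44 log2 (edgeR adjusted p = 0.103), with a mean of 2.64 ± 1.37 CPM in sham-Oxf against 13.7 ± 8.31 in sham-vehicle (SD). Its means were 6.71 ± 4.003 CPM in CKD-Oxf and 24.2 ± 7.22 in CKD-vehicle. Per3 differed there by 1.14 ± 0.36 (adjusted p = 0.210). The list's median log2 difference was 0.46 in that comparison, beside −0.04 for all genes, and −0.38 in CKD-vehicle against sham-vehicle, beside −0.03. In CKD-Oxf against CKD-vehicle Cry2 (0.98 ± 0.19) and Bhlhe41 (0.88 ± 0.17) were among the 8 genes called, higher in CKD-Oxf. For the common slope on mouse number, Per2 at 2.51 ± 0.45 per 10 numbers, Per3 at 1.85 ± 0.33, Ciart at 2.596 ± 0.380 and Arntl at −1.80 ± 0.34 were among the 9 called. These genes entered the choice of the members, and their values are given as a description.

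**Figure D5:**
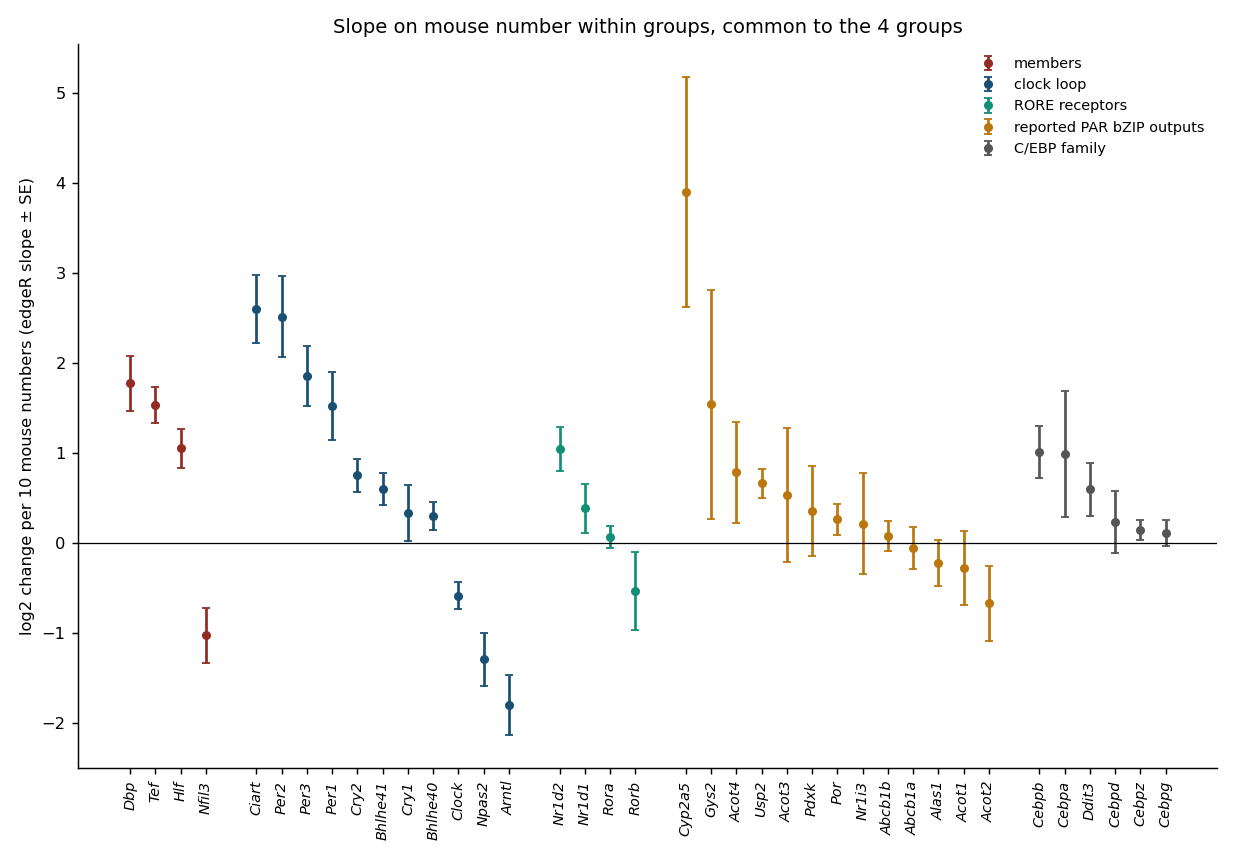
edgeR slope on mouse number within groups in log2 units per 10 numbers (y axis, whiskers 1 SE) for the 4 members and for the genes tested of 4 lists (x axis). Dbp, Tef and Hlf (1.77, 1.53 and 1.05) share their sign with Ciart, Per2 and Per3, and Nfil3 (−1.03) with Arntl; reported output genes have slopes on both sides of 0 and Cyp2a5 and Gys2 wide errors at low counts.

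Of the receptors of RORE elements, which act on Nfil3 and Arntl, 4 are given here (Nr1d1, Nr1d2, Rora and Rorb), and none was called by edgeR, DESeq2 or limma voom in the 4 tested comparisons. Unadjusted p under 0.05 was reached by 2, 1, 1 and 1 of the 4, in the same order of comparisons. The 2 with the largest difference between sham-Oxf and sham-vehicle were Rorb (0.81 ± 0.34) and Rora (0.21 ± 0.10), both encoding ROR activators. Rorb was near 1 CPM or below in each group mean, and Rora averaged 38.7 ± 4.39 CPM (SD) in sham-vehicle against 44.9 ± 4.21 in sham-Oxf. The median over the 4 was 0.19, −0.23 and −0.14 in the first 3 comparisons, beside −0.04, −0.03 and 0.05 for all genes.

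Genes reported as outputs of PAR bZIP factors in liver and other tissues lay on both sides of 0. Of 14 such genes, 13 were tested, Cyp7a1 being too low. None was called by edgeR in the 4 comparisons, with 2, 4, 2 and 2 at an unadjusted p under 0.05. DESeq2 and limma voom each called 1, the ubiquitin protease gene Usp2, in sham-Oxf against sham-vehicle (adjusted p = 0.0452 and 0.0449), and neither called any in the other 3. Usp2, named after its values were seen, averaged 73.6 ± 12.1 CPM in the sham-Oxf hearts against 47.6 ± 11.02 in sham-vehicle (SD). Its edgeR log2 difference was 0.63 ± 0.16 (adjusted p = 0.157), and its r with Dbp over 28 hearts was 0.75. The median log2 difference of the 13 was −0.0355 in sham-Oxf against sham-vehicle, beside −0.0426 for all genes, −0.08 in CKD-vehicle against sham-vehicle and 0.17 in CKD-Oxf against sham-Oxf. Gys2, the liver glycogen synthase gene, and Cyp2a5, a cytochrome P450 gene with close paralogs among which reads may be split, had the largest differences in sham-Oxf against sham-vehicle. Both lay under 1 CPM in each group mean, and the differences of −1.94 ± 1.09 and −0.996 ± 1.227 had wide errors (edgeR unadjusted p = 0.0873 and 0.423).

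The related C/EBP bZIP family gave 6 tested of 7 genes, Cebpe being too low. edgeR, DESeq2 and limma voom called none of them in the 4 comparisons, and 1, 0, 0 and 0 had an unadjusted p under 0.05. Cebpb (0.53 ± 0.26) and Ddit3 (−0.34 ± 0.25) had the largest differences in sham-Oxf against sham-vehicle. The list's median was −0.03 there, −0.09 in CKD-vehicle against sham-vehicle and 0.06 in CKD-Oxf against sham-Oxf.

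Marker sums of other cell types were set beside the members, and their part in the results was not tested. None of the markers was at 0 throughout a group. The 4 fibroblast markers summed to 252 to 767 CPM (sham-vehicle), 342 to 701 (CKD-vehicle), 263 to 589 (sham-Oxf; mean 385) and 241 to 570 (CKD-Oxf; mean 361), and their log2 sum had an r of −0.48 with Dbp, −0.60 with Tef, −0.28 with Hlf and 0.28 with Nfil3 over 28 hearts. The cardiomyocyte sum had an r of 0.52 with Nfil3 and −0.38 with Dbp. The 4 atrial markers averaged 1211 CPM in CKD-vehicle and 847 in sham-vehicle, and 692 and 553 in the CKD-Oxf and sham-Oxf groups, with an r of −0.42 to Tef and −0.35 to Dbp. With the group means removed, the atrial r was −0.22 to Tef and −0.07 to Dbp, and the cardiomyocyte r 0.33 with Nfil3 and −0.12 with Dbp. The fibroblast r was then −0.39 with Dbp, −0.57 with Tef, −0.01 with Hlf and 0.12 with Nfil3. An endothelial marker sum then had an r of −0.28 with Dbp, −0.37 with Tef, −0.47 with Hlf and 0.47 with Nfil3. In the 10 sham-vehicle hearts the mouse number had an r of 0.17 with the cardiomyocyte sum, −0.45 with the fibroblast sum, 0.06 with the atrial sum, 0.34 with log2 depth and −0.007 with the log2 7SL share. In the 6 CKD-vehicle hearts, where Dbp also followed the number, these were −0.30, −0.67, −0.65, −0.78 and −0.42, so that later numbers there had lower fibroblast and atrial sums and fewer counts.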

How the data were processed

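Per the submitters' processing notes, reads were handled with FastQC 0.11.7, MultiQC 1.9, STAR 2.6.1d, Subread and featureCounts 1.6.3 on build mm10. The annotation release, strand setting and treatment of multiply mapped reads are not given in the sources used here. The deposited table holds the authors' whole-number counts per gene, 45513 genes by 28 libraries, with 0 columns left unmapped. GENCODE M21 gave positions for 45465 of the genes.

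The members and lists were chosen with earlier results of these data known. One gene of the lists is not reported here. In R 4.3.3, edgeR 4.0.16 (TMM factors, filterByExpr with a minimum count of 10, robust quasi-likelihood test, Benjamini-Hochberg adjustment over the 24273 genes tested, threshold 0.05) was fitted to 4 group means over all 28 libraries. An SE is the absolute log2 difference divided by the square root of F. log2 CPM used a prior count of 2. Groups came from the titles of the samples. Replicates are separate mice. The fit was tested on simulated data before use.

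Named beside the members were the 5 genes most like each member by r, with a mean log2 CPM of at least 1, and the 5 most opposite to Dbp. In each list every called gene was named, and otherwise the 2 with the largest difference in sham-Oxf against sham-vehicle. Alternatives were DESeq2 1.42.0, voom of limma 3.58.1, other scalings and filters, the mouse number as a covariate, the compared groups alone, and leaving out each of the 28 libraries.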

Additional observations from a re-analysis of the deposited data

Results flagged for a closer look

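One value stood far from its group. In CKD-vehicle, the log2 CPM of Hlf in mouse 919 was 4.53, and its gap to the next heart made up 0.638 of the whole range of the group, from 3.55 to 4.53. Mouse 919 also had the highest Dbp and Tef of its group, at 5.46 and 6.61 log2 CPM, and an Nfil3 of 2.53. Of 20 sets of values examined in this way 1 was singled out, and chance alone gives about 1.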

How the results depend on the processing

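Of 424 alternative values of the 4 genes' log2 differences in the 4 tested comparisons, 418 kept their direction and side of the threshold and 6 passed where the reported value had not. The 88 values for CKD-Oxf against CKD-vehicle kept their sign, and their side of the threshold was not recorded because the comparison chose the genes. For sham-Oxf against sham-vehicle the 0 genes called became 169 with DESeq2, 34 with limma voom, 7 with the mouse number as a covariate and 0 to 20 with 1 library left out (20 without sham-Oxf mouse 923), and the 0 members became 1 with voom and 1 with the covariate. For CKD-vehicle against sham-vehicle the 2 genes became 33 with DESeq2, 93 with voom, 4 with the covariate, 1 with upper quartile scaling, 1 without the 7SL copies, 1 with no filter, 1 with the compared groups alone and 0 to 1 with 1 library left out, and the 0 members became 3 with voom and 1 with the covariate. DESeq2 called 1 gene for the interaction and 134 for CKD-Oxf against sham-Oxf, where edgeR called 0. For CKD-Oxf against CKD-vehicle the 8 genes became 191 with DESeq2, 3639 with voom, 5 with DESeq2 size factors, 5 with upper quartile scaling, 5 with no filter, 14 with at least 10 counts in every library, 23 with the covariate and 0 to 927 with 1 library left out. The cause was not tested. The r of Dbp with mouse number in CKD-Oxf, 0.055, was −0.0578 without the 7SL copies and ran from −0.299 to 0.863 with 1 mouse left out (−0.173 without 931, −0.299 without 936, 0.863 without 940). The r of Nfil3 there, −0.507, was 0.0382 without mice 931 and 940 and ran from −0.836 to −0.256 with 1 mouse left out. No paired analysis was possible because the groups share no mouse numbers. Depth limits Nfil3 most, with 51 counts in the shallowest library.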
